A study of Mus musculus with 18 samples.

Results

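The comparison set batch 1 against batch 2 of mouse embryoid bodies on days 7 and 8 of differentiation, where the study's sorted cells were oldest. It used 8 of the 18 arrays of the series, 4 of batch 1 and 4 of batch 2, taken by the day, fraction and batch in their titles. In each batch there was 1 array each of day 7 GFP-positive, day 7 GFP-negative, day 8 GFP-positive and day 8 GFP-negative cells, so the batches formed 4 pairs. All the cells derived from D3 mouse embryonic stem cells with a transgene in which an Nkx2-5 enhancer and the minimal promoter of the heat shock gene hsp68 drove a green fluorescent protein (GFP). GFP therefore reports that enhancer fragment and not the whole Nkx2-5 gene, and whether the cells were 1 clone is not given in the sources used here. The stem cells were kept on embryonic fibroblasts, taken off these before differentiation, aggregated in hanging drops and moved to suspension in medium with ascorbic acid, which both batches shared. On each day the embryoid bodies were dissociated and sorted by GFP. The titles say only "Batch", so differences of culture, sorting, RNA amplification and array cannot be told apart. The 8 arrays of days 5 and 6, 4 of each batch, were used to see whether a gap between the batches was already there.

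Embryoid bodies are floating aggregates in which embryonic stem cells form the germ layers with little order in space. Heart muscle arises in them from early mesoderm beside endothelium and the first red blood cells, and extraembryonic-like endoderm forms a covering layer. Heart muscle cells are recognised by the sarcomere, a lattice of myosin and actin filaments, endoderm by secreted plasma proteins such as alpha-fetoprotein, and connective tissue by collagens and other matrix proteins.

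Each value is a MAS5 signal, a brightness already scaled by the authors to a common array mean. Array medians were 22.4 to 29.3 in batch 1 and 20.5 to 29 in batch 2. A batch 1 array and the batch 2 array of its pair correlated over probe sets with r between 0.965 and 0.974, and 2 arrays of the same batch but of different groups with r between 0.941 and 0.974 (a description over probe sets, which share the array). Gapdh, whose 3' over 5' signal ratio grows as RNA degrades, had ratios of 1.64, 1.55, 1.54 and 1.46 in batch 1, against 1.32, 1.36, 1.28 and 1.37 in batch 2, in the order day 7 GFP-positive, day 7 GFP-negative, day 8 GFP-positive, day 8 GFP-negative. The ratio was higher in batch 1 in 4 of 4 pairs, by a mean log2 of 0.22, and the exact two-sided sign-exchange test gave the smallest p that 4 pairs allow, which lies above 0.05. The same ratio for beta-actin was 1.77, 1.56, 1.88 and 1.625 in batch 1, against 1.63, 1.82, 1.72 and 1.58 in batch 2, in the same order. It was lower in batch 1 in day 7 GFP-negative cells and higher in the other pairs. The part of these ratios in the results below was not tested. Markers of heart muscle, endothelium, red cells, macrophages, platelets, endoderm, epithelium and fibroblasts were measured on the late arrays. Some markers of other cells were dim: Sox1 of neural ectoderm reached 3.8, Myh11 of mature smooth muscle 6.3 and Tpbpa of placenta 10.3. Other markers of neural ectoderm and smooth muscle were brighter. Pax6 and Sox3 of neural ectoderm reached 91.2 and 37.9, and Cnn1 and Acta2 of smooth muscle 150.8 and 6046.7. The sort held in both batches, since Nkx2-5 and Myh6 were brighter in GFP-positive than in GFP-negative cells on both days.

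Differences are called gaps below, and a gap is batch 1 minus batch 2 in log2(signal + 6.8), where the offset shrinks the gaps of dim genes. No gene was called between the batches over the 4 pairs, but at an unadjusted p under 0.05 more heart muscle, endoderm, epithelial, matrix and imprinted genes were brighter in batch 1 than in batch 2. More genes of the amino acid response, sterol synthesis, DNA replication and blood founding were brighter in batch 2. Of 12598 genes tested with limma, 0 (0%) had an adjusted p under 0.05, and the smallest adjusted p was 0.210. At an unadjusted p under 0.05, 1318 genes (10.5%) were higher and 679 (5.39%) were lower in batch 1. The gap of the median gene was 0.05, and 90% of genes lay between -0.37 and 0.68, from the 5th to the 95th percentile. Batch 1 was higher in 4 of 4 pairs for 1563 genes (12.4%) and lower in 4 of 4 for 1179 (9.36%). All 4 batch 1 arrays lay above all 4 batch 2 arrays for 154 genes (1.22%) and below them for 131 (1.04%). With 1 batch a side, the p-values measure how evenly a gap repeats over the pairs, not how batches vary, and the titles do not say whether days came from separate cultures.

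The 4 pairs did not differ alike. The gap had an SD over genes of 0.493 in day 7 GFP-positive, 0.549 in day 7 GFP-negative, 0.379 in day 8 GFP-positive and 0.616 in day 8 GFP-negative cells. A gap of at least 1 was found for 615, 885, 133 and 1123 genes in that order, and one of -1 or less for 105, 116, 153 and 255 genes. The day 8 GFP-positive pair therefore held the fewest genes at least 2-fold higher in batch 1. Without that pair, 537 of 12104 genes had an adjusted p under 0.05 with limma over the other 3, of which 338 (2.79%) were higher and 199 (1.64%) lower in batch 1. The 338 higher genes had a median gap of 1.00 over the 3 pairs and of -0.03 in the day 8 GFP-positive pair, where 152 of them were positive. The 199 lower genes had a median of -0.61 over the 3 pairs and of -0.01 in the day 8 GFP-positive pair, where 102 were negative. Leaving out the most different pair lowers the spread by construction, so these calls describe 3 pairs and not the late stage as a whole. The same holds for every gap, adjusted p and call given over 3 pairs below. Leaving out any other pair gave 0 calls with limma, with 976 to 1209 genes at an unadjusted p under 0.05. The fit without the day 8 GFP-positive pair was taken up below after these counts were seen, because its count differed.

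**Figure D1:**
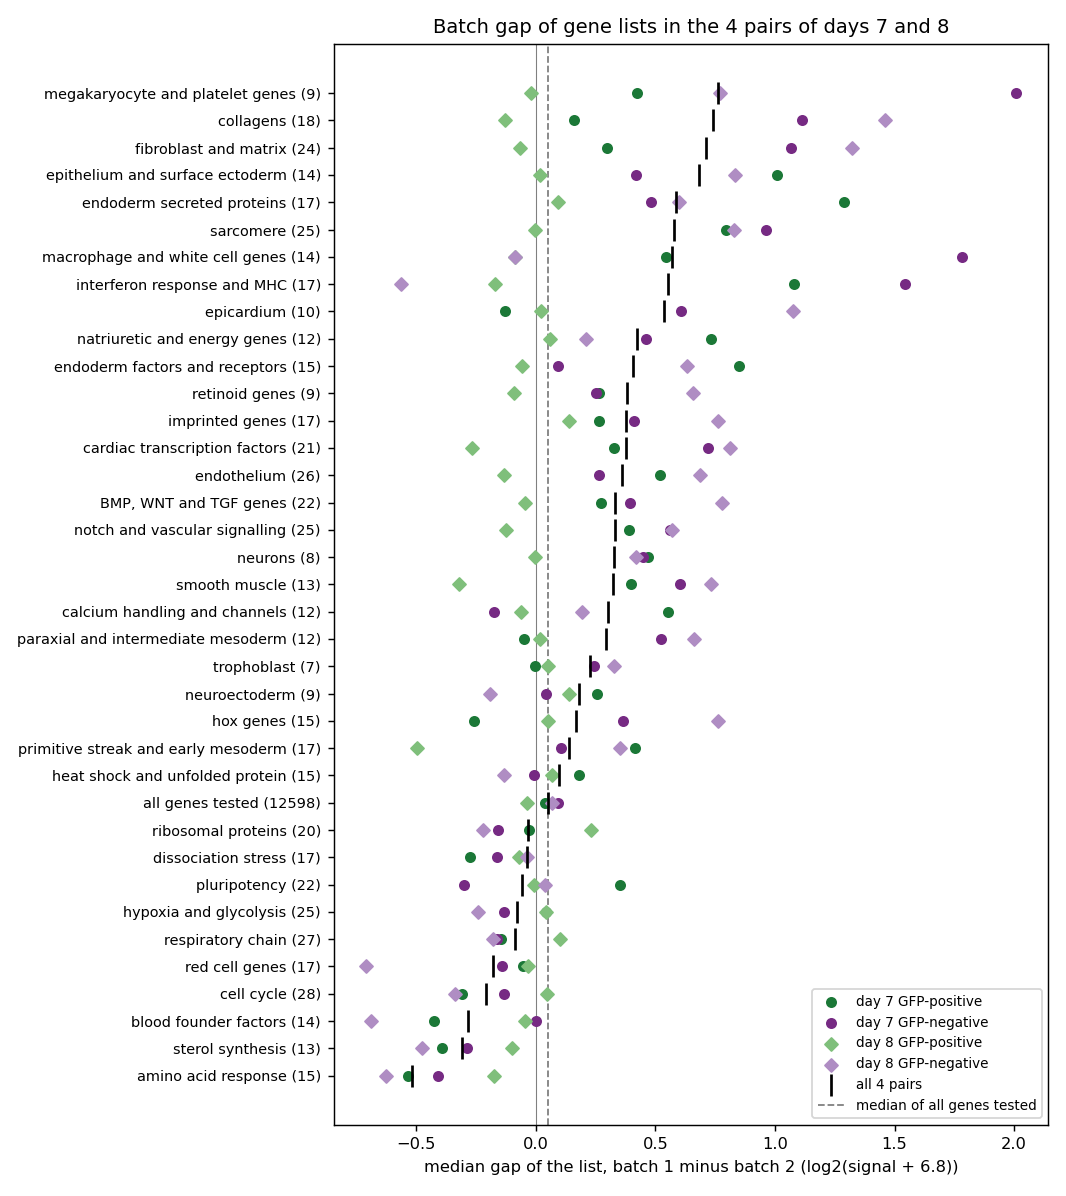
Median gap of each gene list (batch 1 minus batch 2, log2(signal + 6.8)) in each of the 4 pairs; the number of genes tested is in brackets, the black bar is the median of the gaps over all 4 pairs, and the dashed line is the median of all 12598 genes. The day 8 GFP-positive diamonds lie near 0 for most lists, while the other 3 pairs lie to the right for platelet, matrix, epithelial, endoderm and sarcomere genes and to the left for amino acid response genes.

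Heart muscle genes were brighter in batch 1 in 3 of the 4 pairs. Myh6, alpha myosin heavy chain, the motor of the atrial and adult mouse sarcomere, had signals of 2921, 754, 2478 and 466 in batch 1, against 1193, 205, 2593 and 189.7 in batch 2. The order in each batch is day 7 GFP-positive, day 7 GFP-negative, day 8 GFP-positive and day 8 GFP-negative, as for all signals of days 7 and 8 below. Batch 1 stood above batch 2 in both day 7 pairs and in day 8 GFP-negative cells, and slightly below it in day 8 GFP-positive cells. Its gap was 1.08 ± 0.26 over 4 pairs (SE, limma adjusted p = 0.21) and 1.47 ± 0.15 without the day 8 GFP-positive pair (limma adjusted p = 0.0181). Leaving that pair out lowers the spread by construction, so the second value describes the other pairs only. Ttn, the giant spring protein titin, had 1866, 312, 1763 and 219 in batch 1, against 868, 106, 1353 and 74.9 in batch 2, which was higher in batch 1 in 4 of 4 pairs, with a gap of 1.11 ± 0.19 (limma adjusted p = 0.21). Csrp3, a Z-disc protein, had 573, 169.9, 508 and 126 in batch 1, against 201.5, 82.8, 372 and 53.6 in batch 2, again higher in 4 of 4 pairs, with a gap of 1.01 ± 0.18 (limma adjusted p = 0.21). The signals of both batches overlapped for these genes, with GFP-positive arrays of either batch above GFP-negative arrays of the other.

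Of 25 sarcomere genes tested, 19 were higher in batch 1 at an unadjusted p under 0.05 (10.5% of all genes) and 0 lower (5.39%), and 11 were higher in 4 of 4 pairs (12.4%). The list had a median gap of 0.58, made of 0.79 in day 7 GFP-positive, 0.96 in day 7 GFP-negative, 0.00 in day 8 GFP-positive and 0.83 in day 8 GFP-negative cells. Summed signals of 27 sarcomere genes ran between 10898 and 44465 in batch 1, against between 5842.5 and 35404 in batch 2. Over the 3 other pairs, 15 of 23 tested were called higher (2.79% of all genes) and 0 lower. Acta1, skeletal alpha actin, which the embryonic heart also uses, had a gap of 1.64 ± 0.16 there (limma adjusted p = 0.0181), and Myh7, the slow myosin heavy chain, one of 1.21. Tnnt2, cardiac troponin T, had one of 0.97, Myl2, the ventricular light chain, one of 0.85, and Actc1, cardiac alpha actin, one of 0.76. In bulk cells, more heart muscle cells in a sorted fraction and more sarcomere RNA per cell cannot be told apart.

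Nkx2-5, the homeobox factor whose enhancer drove the GFP, had 292, 105.5, 249 and 76.3 in batch 1, against 215.5, 75.5, 323 and 79.4 in batch 2, so batch 1 was higher on day 7 and lower on day 8. Its gap was 0.11 ± 0.18 over 4 pairs (limma adjusted p = 0.786) and 0.27 ± 0.18 over 3 (limma adjusted p = 0.358). Of 21 cardiac transcription factors, 3 were higher at an unadjusted p under 0.05 (10.5% of all genes) and 0 lower (5.39%), shares near those of all genes, with medians of 0.33 and 0.72 in day 7 GFP-positive and GFP-negative cells and of -0.27 and 0.81 on day 8. Over 3 pairs, 2 of 20 were called higher (2.79% of all genes), Foxc2, a forkhead factor of mesoderm and outflow tract, at 1.56, and Hopx, a homeodomain-only protein of heart cells, at 0.70. Gata4, a zinc finger factor of heart and endoderm, had 182, 109.6, 263 and 115 in batch 1, against 149, 71, 412 and 59.2 in batch 2, which is higher in batch 1 in 3 pairs and lower in day 8 GFP-positive cells.

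Of the other heart lists, 4 of 12 natriuretic peptide and energy genes were higher at an unadjusted p under 0.05 (10.5% of all genes) and 0 lower (5.39%), with a median gap of 0.42. Among them were Ppargc1a, a coactivator of mitochondrial genes, at 1.07 ± 0.32, and Pgam2, muscle phosphoglycerate mutase, at 0.71 ± 0.21 (limma adjusted p = 0.216 and 0.216). Of 12 calcium handling and channel genes 3 were higher and 1 lower, against the same shares of all genes. The lower one was Cacna1d, a calcium channel subunit, whose 2 bright probe sets had opposite signs, at -0.79 and 0.32. Slc8a1, the sodium-calcium exchanger, had a gap of 0.94, but its 3 bright probe sets ran between -0.74 and 0.94, so its direction depends on the probe set.

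The promoter of Acta1 is shown because a CArG box, the binding motif of serum response factor in muscle genes, lies close to its start site. The sequence is RefSeq's for mouse build GRCm38.p6, chr8:123894726-123895025, minus strand, 250 bases before to 50 after the start, with the CArG box in capitals at base -73.
Acta1: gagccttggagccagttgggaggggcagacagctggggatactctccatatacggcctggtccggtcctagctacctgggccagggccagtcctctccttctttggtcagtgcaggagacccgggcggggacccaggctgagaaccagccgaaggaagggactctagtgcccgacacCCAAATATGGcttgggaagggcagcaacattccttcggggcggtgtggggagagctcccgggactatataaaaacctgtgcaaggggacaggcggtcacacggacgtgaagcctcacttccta
A CArG box, searched by name on both strands (the motif is palindromic, and a position counts once), was in 6 of 23 sarcomere promoters with a table entry (26.1%), against 1.57% of 27025 promoters of the same length. Besides Acta1 these were Actc1, Ldb3, Myl3, Myl7 and Myom1. A match is a string of letters and was not tested as a site.

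**Figure D2:**
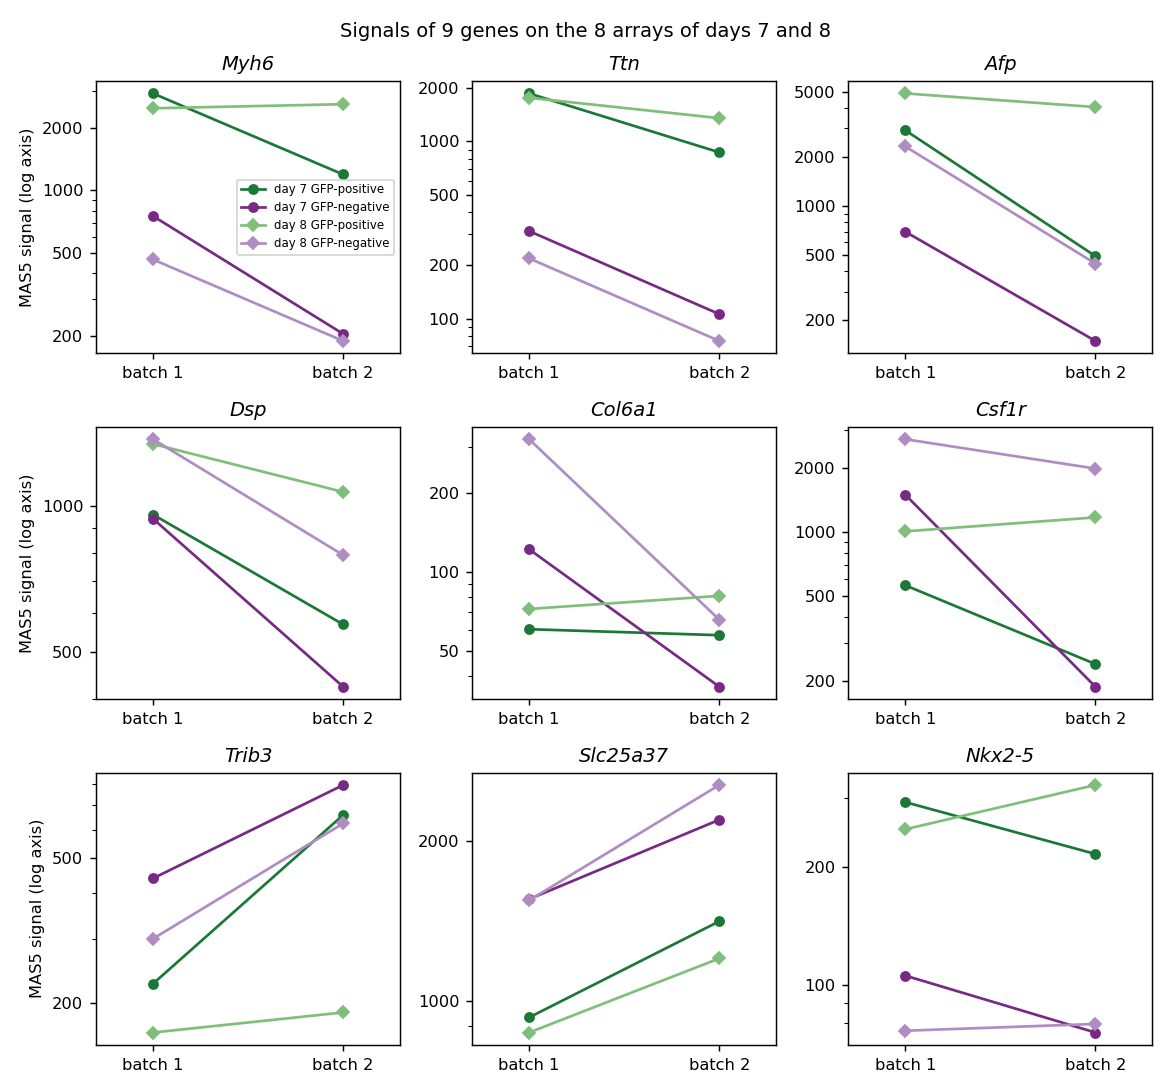
MAS5 signals of 9 genes on the 8 arrays of days 7 and 8 (log axis), with batch 1 left of batch 2 and a line joining the arrays of each pair. Lines for Myh6, Afp and Trib3 are flatter in day 8 GFP-positive cells than in the other 3 pairs, and Slc25a37 was lower in batch 1 in 4 of 4 pairs.

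At an unadjusted p under 0.05 more endoderm and epithelial genes were brighter in batch 1 than in batch 2, with list medians near 0 in day 8 GFP-positive cells. Afp, alpha-fetoprotein, the main plasma protein made by visceral endoderm, had 2926, 699, 4917 and 2327 in batch 1, against 495, 149.5, 4055 and 445 in batch 2. Batch 1 was higher in 4 of 4 pairs, by a small step in day 8 GFP-positive cells and a several-fold one in the others. The gap was 1.84 ± 0.32 over 4 pairs (limma adjusted p = 0.21) and 2.36 ± 0.12 over 3 pairs (limma adjusted p = 0.00162), the lowest adjusted p of that comparison. Ambp, a plasma protein precursor made by endoderm, had 71.3, 26.6, 293 and 185 in batch 1, against 8.8, 6.4, 388 and 22.4 in batch 2, with most of its signal on day 8 and a gap of 2.13 ± 0.33 over 3 pairs (limma adjusted p = 0.0303). Of 17 secreted endoderm proteins, 11 were higher at an unadjusted p under 0.05 (10.5% of all genes), 0 were lower (5.39%), and 9 were higher in 4 of 4 pairs (12.4%). The medians were 1.29 and 0.48 in day 7 GFP-positive and GFP-negative cells, and 0.09 and 0.60 on day 8. Those called higher over 3 pairs, 4 of 17 (2.79% of all genes), were Afp, Ambp, Fgb, the fibrinogen beta chain, at 1.23, and Cst3, the protease inhibitor cystatin C, at 0.63. Over the same 3 pairs Ttr, which carries thyroid hormone and retinol in plasma, had a gap of 0.42 ± 0.13. Apoa1, an apolipoprotein, had one of 0.92 ± 0.23 there, and neither was called (limma adjusted p over 3 pairs = 0.093 and 0.0664).

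Endoderm transcription factors and receptors followed with 4 of 15 higher at an unadjusted p under 0.05 (10.5% of all genes), 0 lower (5.39%) and a median gap of 0.41. Called higher over 3 pairs, 4 of 13 tested (2.79% of all genes), were Cldn6, a tight junction protein of embryonic epithelium, at 1.17, Epcam, an epithelial adhesion molecule, at 1.07, Foxa1, a forkhead factor of endoderm, at 1.25, and Dab2, an endocytic adaptor, at 0.69.

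Among epithelial genes, 10 of 14 were higher at an unadjusted p under 0.05 (10.5% of all genes) and 0 were lower (5.39%). The list median was 0.68, with 1.01 and 0.42 on day 7 and 0.02 and 0.83 on day 8 in GFP-positive and GFP-negative cells. Dsp, desmoplakin, which ties desmosomes to intermediate filaments in epithelium and heart, had 959, 940.2, 1341 and 1372 in batch 1, against 569, 423, 1068 and 791 in batch 2 and a gap of 0.75 ± 0.14 (limma adjusted p = 0.21). Dsg2, a desmosomal cadherin of the same junctions, had 519.5, 313, 695 and 399.5 in batch 1, against 198, 127, 516 and 156 in batch 2 and a gap of 1.09 ± 0.17 (limma adjusted p = 0.21). Both were higher in batch 1 in 4 of 4 pairs, with the smallest step in day 8 GFP-positive cells. Over 3 pairs Krt7 and Krt19, keratins of simple epithelium, had gaps of 1.23 and 0.99, and Cdh1, E-cadherin, one of 1.13 (limma adjusted p = 0.0303, 0.0325 and 0.0478). Summed signals of 17 epithelial genes ran between 8066 and 14826 in batch 1 and between 5004 and 14230.5 in batch 2.

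Matrix genes were brighter in batch 1 chiefly in the GFP-negative cells. Dcn, decorin, a proteoglycan that binds collagen fibrils, had 41.5, 243.5, 67.9 and 1517.5 in batch 1, against 42.5, 57.4, 86.1 and 184 in batch 2. The GFP-positive arrays were alike and the GFP-negative arrays differed severalfold. Lum, lumican, a related proteoglycan of fibroblasts, had 90.1, 726, 111 and 2669 in batch 1, against 84.6, 165, 109 and 599.7 in batch 2, with the same split. Col6a1, a chain of the microfibril collagen VI, had 60.4, 122, 72.2 and 322 in batch 1, against 57.3, 36.4, 81 and 65.7 in batch 2. The gap in GFP-positive minus that in GFP-negative cells was -2.65 ± 0.51 for Dcn, -2.06 ± 0.57 for Lum and -1.92 ± 0.36 for Col6a1 (limma adjusted p = 0.616, 0.631 and 0.616). Ncam1, the neural cell adhesion molecule, which mesenchyme also makes, had 115, 339.9, 146 and 623 in batch 1, against 123, 87, 132 and 179 in batch 2 and a difference of -1.80 ± 0.32 between fractions (limma adjusted p = 0.616).

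The test of the difference between fractions called 0 of 12598 genes (0%) with limma, with a smallest adjusted p of 0.616. At an unadjusted p under 0.05 the gap was more positive in GFP-positive cells for 258 genes (2.05%) and more positive in GFP-negative cells for 710 (5.64%). The 710 held 9 of 18 collagens and 12 of 24 fibroblast and matrix genes, and the 258 held 0 of either list. Collagens had a median gap of 0.07 in GFP-positive and 1.38 in GFP-negative cells, and fibroblast and matrix genes of 0.10 and 1.19. Summed signals of 19 collagens ran between 8899 and 19261 in batch 1, against between 4122 and 12052 in batch 2, and those of 29 fibroblast and matrix genes between 19262 and 29372, against between 9961 and 21062.

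Over both fractions 11 of 18 collagens and 17 of 24 fibroblast and matrix genes were higher at an unadjusted p under 0.05 (10.5% of all genes), and 0 of either were lower. Col4a1, a basement membrane collagen, had 2843, 918.5, 3722 and 1041 in batch 1, against 1438, 393.5, 3832 and 381 in batch 2, with a batch 1 excess in day 7 GFP-positive cells too. Its gap was 1.21 ± 0.12 over 3 pairs (limma adjusted p = 0.0181), and Col4a2 and Col18a1 were the other 2 collagens called higher there, of 17 tested (2.79% of all genes). Of 24 fibroblast and matrix genes 6 were called higher over 3 pairs (2.79% of all genes), among them Sparc, a collagen-binding glycoprotein, at 1.17, Ccn2, a matrix protein induced by TGF-beta, at 1.67, and Vcan, the hyaluronan-binding proteoglycan versican of the cardiac jelly, at 0.99. Ccn2 did not show the split between fractions, with a gap of 1.35 in GFP-positive and 1.24 in GFP-negative cells.

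**Figure D3:**
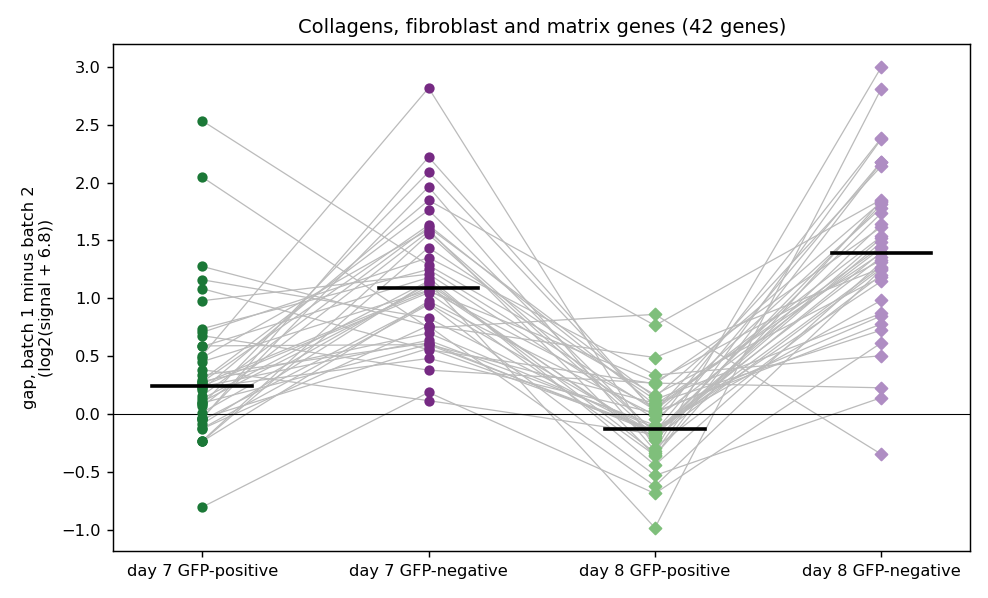
Gaps (batch 1 minus batch 2, log2(signal + 6.8)) of the tested collagens and fibroblast and matrix genes in the 4 pairs, 1 grey line a gene, with black bars at the medians. Both GFP-negative medians lie above 1, and the day 8 GFP-positive median lies just below 0.

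Contractile genes of smooth muscle, which fibroblasts and early heart cells also use, were higher at an unadjusted p under 0.05 for 4 of 13 (10.5% of all genes) and lower for 0 (5.39%), with a median gap of 0.32. Tagln, transgelin, an actin-binding protein, had 619.6, 686, 436 and 572 in batch 1, against 243, 288, 511 and 246 in batch 2, and Myl9, a regulatory light chain, had 606, 428, 726 and 387 in batch 1, against 259, 184, 632 and 213 in batch 2. Over 3 pairs 4 of 13 were called higher (2.79% of all genes), Tagln at 1.25, Myl9 at 1.08, Tpm2, a tropomyosin, at 0.86 and Acta2, smooth muscle actin, at 0.36. Of 10 epicardial genes 2 were higher and 0 lower at an unadjusted p under 0.05, near the shares of all genes (10.5% and 5.39%), with medians of -0.13 and 0.61 on day 7 and 0.02 and 1.08 on day 8 in GFP-positive and GFP-negative cells.

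Interferon response and white cell genes were brighter in batch 1 on day 7 and not on day 8. B2m, the light chain of class I major histocompatibility molecules (MHC), had 1624, 1700.2, 1824 and 1933 in batch 1, against 820.1, 642, 2331 and 2525 in batch 2. Batch 1 was higher in both day 7 pairs and lower in both day 8 pairs, and the gap on day 8 minus that on day 7 was -1.56 ± 0.23 (limma adjusted p = 0.618). Irf7, a transcription factor of the interferon response, had 78.1, 130.4, 41.3 and 76.3 in batch 1, against 28, 11, 61.1 and 212 in batch 2, and a difference between the days of -3.06 ± 0.62. Oas1a, an interferon-induced antiviral enzyme, had 173, 356, 155 and 273 in batch 1, against 29.2, 44.1, 159 and 559.6 in batch 2, and a difference of -3.10 ± 0.41. None of the 3 passed the test (for Irf7 and Oas1a, limma adjusted p = 0.9997 and 0.387).

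The test of day 8 against day 7 called 0 of 12598 genes (0%) with limma, with a smallest adjusted p of 0.387. It called 12 genes without the day 8 GFP-positive pair and 6 without the day 8 GFP-negative pair. At an unadjusted p under 0.05 the gap was more positive on day 8 for 78 genes (0.619%) and less positive for 355 (2.82%). The 355 held 13 of 17 interferon and MHC genes and 6 of 14 macrophage and white cell genes. The interferon and MHC genes had median gaps of 1.08 and 1.54 in day 7 GFP-positive and GFP-negative cells and of -0.17 and -0.56 on day 8. The white cell genes had 0.54 and 1.78 on day 7 and -0.09 and -0.09 on day 8. Summed signals of the 14 white cell genes were 2028, 4753, 2609 and 6432 in batch 1, against 1465, 1390.4, 2912 and 6450.3 in batch 2, in the usual order. Those of the 17 interferon and MHC genes were 6212, 7133, 5784 and 6226 in batch 1, against 4006, 3697, 6471 and 8785 in batch 2. The white cell markers thus moved with the interferon genes between the days, and their part in that result was not tested. Of 14 white cell genes and 17 interferon and MHC genes 0 were called over the 3 pairs.

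Among white cell genes, Csf1r, the receptor for macrophage colony-stimulating factor, had 562, 1494, 1005 and 2716 in batch 1, against 240.4, 188, 1169 and 1978 in batch 2. Its signal was higher on day 8 than on day 7 in both batches and fractions, and the batches differed most in day 7 GFP-negative cells. Ccl6, a macrophage chemokine, had 112, 352, 188 and 491 in batch 1, against 15.3, 74.5, 221 and 707.5 in batch 2, with batch 1 higher on day 7 and lower on day 8. Ptprc, the pan-leukocyte phosphatase CD45, had 94, 301, 155 and 344 in batch 1, against 46.1, 52.4, 173 and 523 in batch 2. C1qb, a complement chain made by macrophages, had 33.4, 129, 119 and 546 in batch 1, against 9.4, 6.9, 86.6 and 153 in batch 2, with batch 1 higher in all 4 pairs and a gap of 2.14 ± 0.37 over 3 pairs (limma adjusted p = 0.0367). Mpeg1, a pore-forming protein of macrophages, had one of 2.09 ± 0.39 (limma adjusted p = 0.0389). These 2 genes were named by size among the calls over 3 pairs, after their values were seen, and are in neither list above.

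The platelet list had a median gap above 0 on day 8 in GFP-negative cells, but its genes were mixed there. Pf4, the platelet chemokine, had 374, 2252, 1099.6 and 4199.7 in batch 1, against 194, 281, 1265 and 2341 in batch 2. Ppbp, another platelet chemokine precursor, had 29.3, 149, 108 and 522 in batch 1, against 10.8, 9.9, 108 and 164 in batch 2, with equal signals in day 8 GFP-positive cells and batch 1 excess in the others. In day 8 GFP-negative cells Gp9, a platelet marker, had 259 in batch 1, against 244 in batch 2. Plek, pleckstrin of platelets and white cells, was lower in batch 1 there, at 2673.5 against 3892. Of 9 megakaryocyte and platelet genes 6 were higher at an unadjusted p under 0.05 (10.5% of all genes) and 0 lower (5.39%). The medians were 0.42 and 2.01 on day 7 and -0.02 and 0.77 on day 8 in GFP-positive and GFP-negative cells. Over 3 pairs 2 of 9 were called higher (2.79% of all genes), Vwf, von Willebrand factor, with a gap of 1.01 ± 0.27 over all 4, and Ppbp at 1.96 ± 0.39 over 3 (limma adjusted p over 3 pairs = 0.03 and 0.0432).

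**Figure D4:**
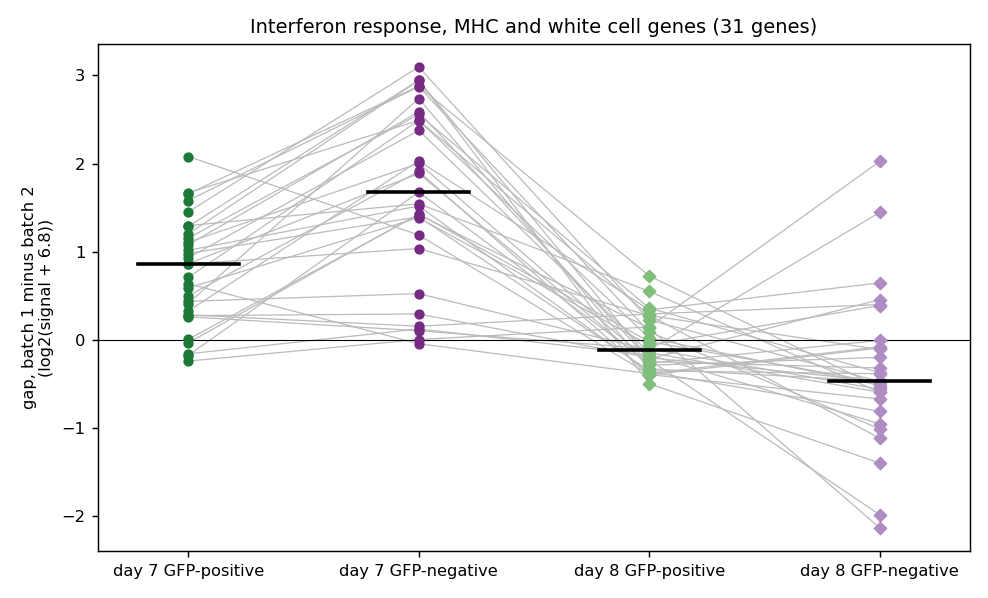
Gaps (batch 1 minus batch 2, log2(signal + 6.8)) of interferon, MHC and white cell genes in the 4 pairs, 1 grey line a gene, with black bars at the medians. The medians lie above 0 in both day 7 pairs and below 0 in both day 8 pairs.

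The B2m promoter is shown because it holds the short interferon-stimulated response motif (GAAA, any 2 bases, GAAA, both strands searched) and the gene's gap had opposite signs on the 2 days. It is RefSeq's, GRCm38.p6, chr2:122147437-122147736, plus strand, with the motif in capitals at base -139.
B2m: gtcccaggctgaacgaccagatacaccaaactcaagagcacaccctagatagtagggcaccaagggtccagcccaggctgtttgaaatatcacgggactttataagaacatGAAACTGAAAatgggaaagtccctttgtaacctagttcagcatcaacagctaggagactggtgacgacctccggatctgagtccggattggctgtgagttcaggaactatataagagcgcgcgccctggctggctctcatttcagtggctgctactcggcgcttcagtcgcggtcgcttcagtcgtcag
The motif was in 9 of 17 interferon and MHC promoters in the table (52.9%), against 3.49% of all 27025. The list was chosen for interferon genes, so the share describes the list and not its gap.

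At an unadjusted p under 0.05 more endothelial, vascular signalling and imprinted genes were brighter in batch 1 than in batch 2, though common endothelial markers were mixed. Of 26 endothelial genes 11 were higher at an unadjusted p under 0.05 (10.5% of all genes) and 0 lower (5.39%). In 4 of 4 pairs 9 were higher (12.4%), and the median gap was 0.36. Mmrn2, a matrix glycoprotein of endothelium, had 1070.3, 145, 1754 and 156 in batch 1, against 529.5, 62.1, 1928 and 50.5 in batch 2, with GFP-positive cells far brighter and the 2 day 8 GFP-positive arrays in the other order. The 4 of 26 called higher over 3 pairs (2.79% of all genes) were Mmrn2 at 1.22, Plvap, a protein of vessel wall pores, at 0.86, Ets1, an ETS-family factor, at 0.63 and Cldn5, the endothelial claudin, at 0.64. Pecam1, an adhesion molecule often used to mark endothelium, had 77.7, 35.6, 121 and 38.2 in batch 1, against 77.2, 30.1, 193 and 30 in batch 2 and a gap of -0.04 ± 0.21 (limma adjusted p = 0.953). Cdh5, another endothelial marker, had 170, 41.6, 234 and 58.2 in batch 1, against 114, 60.4, 277 and 41.2 in batch 2. Tie1 had 174, 46.3, 189 and 54.8 against 114, 40.9, 329 and 40.9, and Tek 794, 309, 855 and 214 against 730, 266, 842 and 187. Tek was thus higher in batch 1 in 4 of 4 pairs. Tie1 was lower in day 8 GFP-positive cells, and Cdh5 there and in day 7 GFP-negative cells.

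Of 25 Notch and vascular signalling genes, 10 were higher at an unadjusted p under 0.05 (10.5% of all genes), 0 lower (5.39%), and the median gap was 0.33. Efnb2, ephrin B2, a ligand that marks arteries, had 822, 358, 1469.7 and 574.5 in batch 1, against 449.6, 154, 1141 and 148 in batch 2, higher in 4 of 4 pairs with a gap of 1.08 ± 0.22 (limma adjusted p = 0.21). Cxcl12, a chemokine that guides vessels and blood progenitors, had 186, 174, 249 and 321 in batch 1, against 86.9, 56.1, 231 and 102.5 in batch 2, also higher in 4 of 4, at 1.06 ± 0.24 (limma adjusted p = 0.21). Both were called over 3 pairs, at 1.32 and 1.38, with Vegfc, a growth factor of lymphatic vessels, at 0.93 and Nrp2, its coreceptor, at 0.95, so 4 of 24 were called higher (2.79% of all genes).

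Of 17 imprinted genes, which are expressed from the copy of one parent, 12 were higher at an unadjusted p under 0.05 (10.5% of all genes) and 10 in 4 of 4 pairs (12.4%). Imprinted genes had a median of 0.38 and were the only list, of those just described, with a day 8 GFP-positive median over 0.1, at 0.14. Igf2r, a receptor that clears the growth factor Igf2, had 1114, 462, 1706 and 691 in batch 1, against 753, 386, 729 and 377 in batch 2, and its largest step was in day 8 GFP-positive cells. Dlk1, a membrane ligand of the Notch type, had 766, 1659, 1267 and 2970.5 in batch 1, against 562, 529.8, 986 and 947 in batch 2, with its largest steps in GFP-negative cells. The gaps were 0.72 ± 0.16 and 1.02 ± 0.23 (limma adjusted p = 0.21 and 0.21). Meg3, a long noncoding RNA of the same locus as Dlk1, had 3022.5, 1884, 4067.5 and 3182.5 in batch 1, against 1695, 1003, 4459 and 1341 in batch 2, higher in 3 pairs. Over 3 pairs 5 of 17 were called higher (2.79% of all genes), Meg3 at 0.99, Rian, another noncoding RNA of that locus, at 0.87, Sgce, a sarcoglycan, at 0.67, Plagl1, a zinc finger factor, at 1.11 and Dlk1 at 1.24.

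All 4 batch 1 arrays of Peg3, a zinc finger gene, and of Ndn, necdin, both imprinted, lay above all 4 of batch 2, at gaps of 0.26 and 0.30, and so did those of Ifitm2, an interferon-induced membrane protein, at 0.28 (1.22% of all genes did). Rarb, a retinoic acid receptor that retinoic acid itself induces, also did not overlap, with 112, 116, 123 and 254.5 in batch 1, against 69.4, 46.3, 78.5 and 62.3 in batch 2 and a gap of 1.09 ± 0.24 (limma adjusted p = 0.21). Crabp2, which carries retinoic acid to its receptors, had 163, 194, 268 and 351 in batch 1, against 83.2, 68.6, 286 and 86.9 in batch 2 and differed little in day 8 GFP-positive cells. Of 9 retinoid genes 3 were higher (10.5% of all genes) and 0 lower (5.39%) at an unadjusted p under 0.05. Rarb and Crabp2 were called higher over 3 pairs, at 1.26 and 1.42 (2.79% of all genes were).

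Of 22 BMP, WNT and TGF-beta ligands and antagonists, 7 were higher at an unadjusted p under 0.05 (10.5% of all genes) and 0 lower (5.39%). The leading members were Dkk2 and Dkk3, of the Dickkopf family of secreted proteins, at 1.15 ± 0.37 and 0.72 ± 0.24 (limma adjusted p = 0.229 and 0.231).

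By the lowest p among genes of 1 sign in 4 of 4 pairs, the 12 genes leading on the batch 1 side, all with a limma adjusted p of 0.210, were Cfap61, Dsg2, Mettl7a2, Fras1, Ttn, Flrt2, Cpe, Afp, Armh4, Csrp3, Abhd2 and Dsp. Cfap61, a protein of motile cilia, had 134, 109, 100.6 and 142 in batch 1, against 51.3, 43, 29.8 and 21 in batch 2, so the batches did not overlap, and its gap was 1.62 ± 0.24. Mettl7a2, a methyltransferase-like protein, had 39.1, 42.8, 32.7 and 56.4 in batch 1, against 2.6, 2.8, 5.1 and 21.9 in batch 2, also without overlap, at 1.88 ± 0.30. Both gaps were about as large in day 8 GFP-positive cells as over the 4 pairs. The batch 2 signals of Mettl7a2 were all under 22.5, the median of all values, so the size of its gap rests on dim values. Its only probe set was of type x. Cpe, carboxypeptidase E, which trims peptide hormones, had a gap of 1.23 ± 0.21, Fras1, a basement membrane protein, one of 1.00 ± 0.16, and Flrt2, a guidance and adhesion protein, one of 0.95 ± 0.16. Where a gene had several bright probe sets, the lowest gap among them was 0.32 for Fras1, 0.09 for Abhd2, 0.33 for Dsg2, 0.34 for Ttn and 0.88 for Afp.

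Most genes of the amino acid response, which cells raise through the factor Atf4 when amino acids or folding capacity run short, were dimmer in batch 1. Trib3, a pseudokinase induced by Atf4, had 225, 439.9, 165 and 299.8 in batch 1, against 658, 796, 188 and 624 in batch 2. Batch 1 was lower in 4 of 4 pairs, least in day 8 GFP-positive cells, and the gap was -0.90 ± 0.20 (limma adjusted p = 0.21). Mthfd2, a mitochondrial enzyme of folate metabolism, had 787, 1115, 416 and 584 in batch 1, against 1498, 1926, 537 and 1909 in batch 2, lower in 4 of 4 pairs at -0.94 ± 0.19 (limma adjusted p = 0.21). Asns, asparagine synthetase, had 2325, 3068, 1406 and 1616.5 in batch 1, against 3421, 4133, 1413 and 3489.6 in batch 2, with near-equal signals in day 8 GFP-positive cells and a gap of -0.52 ± 0.16 (limma adjusted p = 0.216). Of 15 genes of the list 10 were lower at an unadjusted p under 0.05 (5.39% of all genes), 0 were higher, and 8 were lower in 4 of 4 pairs (9.36%). The medians were -0.53 and -0.41 on day 7 and -0.18 and -0.63 on day 8 in GFP-positive and GFP-negative cells. Gaps of single members ran from -0.94 to 0.70. Summed signals of 16 genes of the list were 12918, 14086, 10229 and 8822 in batch 1, against 17829, 19284, 8309 and 15546 in batch 2. The sum was thus higher in batch 1 in day 8 GFP-positive cells and lower in the other pairs. Over 3 pairs 5 of 15 were called lower (1.64% of all genes), Trib3 at -1.13, Mthfd2 at -1.14, Psat1, an enzyme of serine synthesis, at -0.86, Shmt2, which makes glycine from serine in mitochondria, at -0.72 and Asns at -0.70.

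The promoters of Trib3 and Asns are shown because both hold the amino acid response motif TGATGNAA, which Atf4 binds with a partner. They are RefSeq's, GRCm38.p6, chr2:152344011-152344310 and chr6:7693160-7693459, both minus strand, with the motif in capitals. In Trib3 it reads on the reverse strand at base 15, counted from 1 at the start, and in Asns on the forward strand at base -23.
Trib3: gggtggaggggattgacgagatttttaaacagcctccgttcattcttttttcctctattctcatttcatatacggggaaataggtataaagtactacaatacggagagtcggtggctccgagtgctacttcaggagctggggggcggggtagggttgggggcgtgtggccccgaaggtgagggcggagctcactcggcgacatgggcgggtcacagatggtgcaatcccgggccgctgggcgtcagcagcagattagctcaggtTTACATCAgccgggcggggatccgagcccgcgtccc
Asns: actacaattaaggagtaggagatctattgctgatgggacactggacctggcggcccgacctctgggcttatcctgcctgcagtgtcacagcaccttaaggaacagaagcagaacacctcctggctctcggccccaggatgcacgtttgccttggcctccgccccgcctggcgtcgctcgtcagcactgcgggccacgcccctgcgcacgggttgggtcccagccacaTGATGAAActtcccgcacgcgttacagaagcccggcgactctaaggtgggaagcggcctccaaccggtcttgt
The motif, searched on both strands, was in 4 of 14 promoters of the list (28.6%; Asns, Chac1, Slc7a11 and Trib3), against 4.06% of all 27025.

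Most sterol synthesis genes were dimmer in batch 1 by smaller steps. Lss, lanosterol synthase, had 892, 1478, 534 and 940.1 in batch 1, against 1523, 1919, 659 and 1557 in batch 2, lower in 4 of 4 pairs, at -0.54 ± 0.12 (limma adjusted p = 0.21). Of 13 genes tested 8 were lower at an unadjusted p under 0.05 (5.39% of all genes), 0 higher and 7 lower in 4 of 4 pairs (9.36%), with a median gap of -0.31. Over 3 pairs 4 of 13 were called lower (1.64% of all genes), Lss at -0.62, and Idi1, Fdps and Sqle, enzymes of the pathway's middle steps, at -0.60, -0.60 and -0.43. Srebf2, the factor that turns on this pathway, had 218, 201, 174.5 and 196 in batch 1, against 243, 235, 220.4 and 254 in batch 2, so all batch 1 arrays lay below all batch 2 arrays, at a gap of -0.27 (1.04% of all genes did). The sterol motif TCACNCCAC (both strands) was in the promoter of 1 of 9 members in the table, Hmgcs1 (11.1%), against 1.22% of all 27025.

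Some replication genes were dimmer in batch 1 too. Of 28 cell cycle genes 8 were lower (5.39% of all genes) and 2 higher (10.5%) at an unadjusted p under 0.05, with a median gap of -0.21. Mcm5, a subunit of the helicase that opens replication origins, had 752, 1174, 622 and 700.2 in batch 1, against 1209, 1663, 734 and 1090.3 in batch 2, lower in 4 of 4 pairs, at -0.51 ± 0.11 (limma adjusted p = 0.21). The 4 of 27 called lower over 3 pairs (1.64% of all genes) were Cdc6, which loads that helicase, at -0.82, Mcm5 at -0.60, Mcm6, another of its subunits, at -0.48 and Pcna, the sliding clamp of DNA polymerase, at -0.34. Ccnd2, a D-type cyclin, ran the other way at 0.40, and 6 of its 7 bright probe sets were of 1 sign.

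Of 17 immediate early and stress genes, which tissue dissociation can raise, 5 were lower (5.39% of all genes) and 1 higher (10.5%) at an unadjusted p under 0.05, with a median gap of -0.04. Fosb, an AP-1 transcription factor, had 10.8, 10.7, 12.5 and 20.9 in batch 1, against 64.3, 58.7, 34.8 and 24.2 in batch 2, so the batches did not overlap, but the batch 1 signals were all under 22.5, the median of all values. Dusp1, a phosphatase of MAP kinases, had 1033, 1137, 1033 and 922 in batch 1, against 1484, 1431, 1189 and 1344 in batch 2 and also did not overlap, nor did Btg2, a growth-arrest gene, at a gap of -0.39. For 1.04% of all genes the batch 1 arrays lay below those of batch 2 without overlap. Myc, a growth-promoting transcription factor on that list, had 261.5, 332, 172 and 196 in batch 1, against 549.8, 586, 181 and 404 in batch 2 and a gap of -0.74 ± 0.18 over 4 pairs (limma adjusted p = 0.212). Myc was called lower over 3 pairs at -0.96, and so was Dusp1 at -0.46 (1.64% of all genes were).

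The 12 genes leading on the batch 2 side, all with a limma adjusted p of 0.210, were Cpne7, Nmd3, Slc25a37, Nop56, Mtm1, Ftsj3, Mcm10, Cryl1, Slc6a9, Suclg2, Zmynd19 and Wdr43. Cpne7, a calcium-dependent membrane-binding copine, had 155, 163, 99.7 and 111 in batch 1, against 267, 298, 165 and 223 in batch 2, lower in 4 of 4 pairs by similar steps, at -0.81 ± 0.14. Nop56, a core protein of the small nucleolar particles that methylate ribosomal RNA, had 1246, 1570.4, 723 and 1022.5 in batch 1, against 2069, 2427, 927 and 1709.9 in batch 2, at -0.61 ± 0.11. Nmd3, which exports the large ribosomal subunit, had a gap of -0.78 ± 0.13, Ftsj3, a ribosomal RNA methyltransferase, one of -0.71 ± 0.13, Wdr43, a nucleolar protein, one of -0.67 ± 0.13, and Mcm10, a replication factor, one of -0.68 ± 0.13. Cryl1 and Mtm1 depend on the probe set, since only 2 of 4 and 2 of 3 bright probe sets had the same sign. The gap nearest 0 among the bright probe sets was -0.15 for Mcm10, -0.34 for Nop56, -0.37 for Wdr43 and -0.41 for Nmd3. Of 56 named genes with more than 1 bright probe set, all had 1 sign for 46, but their sizes could differ, as for Sparc (0.02 to 0.98) and Mcm5 (-0.51 to -0.07).

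Of the blood founding factors, 6 of 14 were dimmer in batch 1 at an unadjusted p under 0.05 and 0 were brighter, with a list median clearly below 0 in 2 of the 4 pairs. Lmo2, a scaffold protein of the blood-forming transcription complex, had 617.5, 1048.5, 657.5 and 681 in batch 1, against 1223, 1423, 817 and 1617 in batch 2, lower in 4 of 4 pairs, at -0.74 ± 0.16 (limma adjusted p = 0.21). Over all genes 5.39% were lower at an unadjusted p under 0.05, and 6 of the 14 factors, against 9.36% of all genes, were lower in 4 of 4 pairs. The medians were -0.43 and 0.00 on day 7 and -0.04 and -0.69 on day 8 in GFP-positive and GFP-negative cells. Over 3 pairs 4 of 14 were called lower (1.64% of all genes), Lmo2 at -0.89, Klf1, the red cell Kruppel-like factor, at -0.78, Tal1, a master factor of blood, at -0.60 and Gata1, the GATA factor of red cells and platelets, at -0.61.

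Red cell genes themselves were mixed. Slc25a37, mitoferrin-1, which brings iron into mitochondria for heme, had 933, 1555, 874 and 1547 in batch 1, against 1413, 2192, 1204 and 2547 in batch 2, lower in 4 of 4 pairs, at -0.57 ± 0.10 (limma adjusted p = 0.21). Hbb-y, an embryonic beta-type globin, had 3022, 6494, 3770 and 6559 in batch 1, against 989, 3674, 3151 and 7176 in batch 2, higher in 3 pairs and lower in day 8 GFP-negative cells. Of 17 red cell genes 6 were lower (5.39% of all genes) and 2 higher (10.5%) at an unadjusted p under 0.05. The median gap of -0.18 came mostly from day 8 GFP-negative cells, at -0.71. Over 3 pairs Slc25a37 and Epor, the erythropoietin receptor, were called lower of 17, at -0.60 and -0.85 (1.64% of all genes were). Summed signals of 18 red cell genes ran between 34772 and 48963 in batch 1 and between 32764.5 and 56949 in batch 2.

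Whether the late gaps differed from those of days 5 and 6 was asked with the late minus the early gap over 16 arrays. Of 13085 genes, 73 (0.558%) had a more positive and 239 (1.83%) a more negative gap on days 7 and 8 (limma, adjusted p under 0.05), so 23.4% of the 312 calls were positive. With all arrays set to equal medians the calls were 645, of which 46 were positive and 599 negative, or 7.13% positive, and the median gene moved to -0.22, against 0.03 in the deposited scaling. Without the day 7 GFP-positive, day 7 GFP-negative or day 8 GFP-negative pair the calls fell to 112, 163 and 119, and without the day 8 GFP-positive pair they were 369.

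Of 17 red cell genes 13 were called with a more negative late gap (1.83% of all genes) and 0 with a more positive one (0.558%). The list's median gap was 2.65 on days 5 and 6 and -0.18 on days 7 and 8. Hemgn, a nuclear protein of blood-forming cells, had on days 5 and 6 signals of 259, 326.5, 532 and 1112 in batch 1, against 2.8, 2.1, 40.7 and 60.9 in batch 2, in the order day 5 GFP-positive, day 5 GFP-negative, day 6 GFP-positive, day 6 GFP-negative. On days 7 and 8 it had 659, 1097, 393 and 926 in batch 1, against 576, 1265, 305 and 1971 in batch 2, so the large early gap was not there late, and the difference was -4.58 ± 0.39 (limma adjusted p = 0.00033). Alas2, the first enzyme of heme synthesis in red cells, Slc4a1, the band 3 anion exchanger, and Trim10, a red cell protein, had differences of -3.80 ± 0.55, -3.91 ± 0.48 and -3.84 ± 0.49 (limma adjusted p = 0.00589, 0.00247 and 0.00272). Plek, pleckstrin of platelets and white cells, and Csf2rb, the shared beta chain of cytokine receptors, had -4.11 ± 0.47 and -4.01 ± 0.51 (limma adjusted p = 0.00217 and 0.00272). Slc25a37 had a gap of 2.06 early and of -0.57 late, of opposite signs.

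The Hemgn promoter is shown because the gene had the most negative of these differences and its first bases hold AGATAA, a form of the GATA factor motif. It is RefSeq's, GRCm38.p6, chr4:46404134-46404433, minus strand, with the motif in capitals at base 29, counted from 1 at the start.
Hemgn: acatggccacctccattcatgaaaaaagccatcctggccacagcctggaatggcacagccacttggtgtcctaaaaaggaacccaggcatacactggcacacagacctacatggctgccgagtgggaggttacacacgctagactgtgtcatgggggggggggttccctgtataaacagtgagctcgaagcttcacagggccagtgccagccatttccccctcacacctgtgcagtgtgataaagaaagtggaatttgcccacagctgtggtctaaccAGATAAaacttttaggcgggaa
AGATAA (both strands) was in 5 of 14 red cell promoters in the table (35.7%; Alas2, Cpox, Epb42, Epor and Hemgn), against 11.4% of all 27025.

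Of 25 sarcomere genes 7 were called with a more negative late gap (1.83% of all genes), and the list's median gap was 2.43 early and 0.58 late. Myh6 had early signals of 729.5, 188.5, 1078 and 298 in batch 1, against 19.5, 25, 37.3 and 25.9 in batch 2, a gap of 3.82 early and 1.08 late, and a difference of -2.73 ± 0.51 (limma adjusted p = 0.0198). Without the day 7 GFP-positive or the day 8 GFP-negative pair the adjusted p of Myh6 was 0.0692 and 0.0619 with limma. The difference of Myh6 was -1.48 with the mean over its probe sets and -2.06 with an offset of 32, and missed the threshold in both and without the variance trend (limma adjusted p = 0.0827, 0.0535 and 0.0636). Ttn had a difference of -2.37 ± 0.46 and Nkx2-5 one of -1.04 ± 0.26 (limma adjusted p = 0.0231 and 0.0612), and Nkx2-5 was called with equal array medians at -1.29. Of 16 amino acid response genes 5 were called with a more negative late gap (1.83% of all genes). Trib3 had a gap of 1.25 early and -0.90 late, of opposite signs, with a difference of -2.14 ± 0.32 (limma adjusted p = 0.00698).

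Several mesoderm and pluripotency genes had negative gaps early. Mesp1, a factor of the first cardiovascular mesoderm, had early signals of 37.3, 112, 24.3 and 37.2 in batch 1, against 1527, 2463, 82.1 and 186 in batch 2, and late signals all between 18.1 and 47.4. The difference was 3.25 ± 0.70 (limma adjusted p = 0.0385), and it had an adjusted p over 0.05 without any 1 of the 4 late pairs, between 0.0591 and 0.118. Dppa5a, a gene of pluripotent cells, had early signals of 38.3, 402, 17 and 156 in batch 1, against 1201, 2717, 145 and 486 in batch 2 and a difference of 2.95 ± 0.53 (limma adjusted p = 0.0161, and 0.0694 and 0.0594 without the day 7 GFP-positive and day 8 GFP-negative pair). Hoxb1, a homeobox gene of early mesoderm and hindbrain, had 2.21 ± 0.32, Cxcr4, the receptor of Cxcl12, 2.22 ± 0.38, and Fabp7, a fatty acid binding protein of neural progenitors, 3.28 ± 0.59 (limma adjusted p = 0.00589, 0.0128 and 0.0161). Cxcr4 had 0.0533 without the day 7 GFP-positive pair and Fabp7 0.0627 without the day 8 GFP-negative pair (limma adjusted p). Col27a1, a fibrillar collagen of cartilage, had 2.70 ± 0.61 (limma adjusted p = 0.0462), and an adjusted p of 0.0728 to 0.142 without each of 3 late pairs, the day 8 GFP-positive pair excepted. With an offset of 32, Fabp7 had a difference of 1.84, Mesp1 of 2.79 and Col27a1 of 1.45, all with an adjusted p over 0.05 (limma adjusted p = 0.0535, 0.0562 and 0.0513), and with the mean over probe sets Col27a1 had 1.75 and Mesp1 3.25 (limma adjusted p = 0.115 and 0.0558). With no filter on signal Mesp1 and Col27a1 missed the threshold (limma adjusted p = 0.0506 and 0.0592). Without the variance trend Mesp1, Dppa5a and Col27a1 also missed the threshold (limma adjusted p = 0.0944, 0.0524 and 0.091). The early gaps were -3.29 for Mesp1, -2.94 for Dppa5a and -2.09 for Hoxb1, against late gaps of -0.04, 0.01 and 0.13. Of 21 primitive streak and early mesoderm genes 1 was called with a more positive late gap, and of 25 pluripotency genes 2 (0.558% of all genes). The list medians were -1.12 and -0.67 early and 0.08 and 0.01 late.

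**Figure D5:**
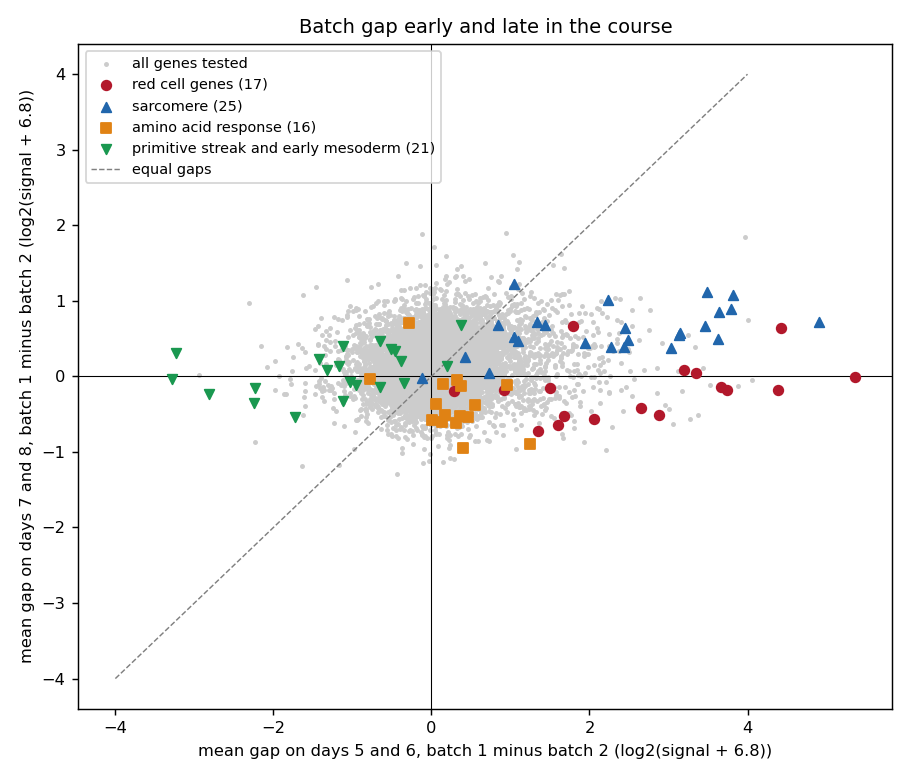
Mean gap on days 7 and 8 (vertical) against mean gap on days 5 and 6 (horizontal) for each gene tested, batch 1 minus batch 2 on the log2(signal + 6.8) scale, with 4 lists coloured and a dashed line of equal gaps. Red cell genes spread to the right along 0, most sarcomere genes lie right of 0 and above it, and amino acid response genes lie mostly below 0.

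Other lists stayed near the background (10.5% of all genes higher and 5.39% lower at an unadjusted p under 0.05) or were small. Of 20 ribosomal protein genes 0 were higher and 1 lower at an unadjusted p under 0.05, of 27 respiratory chain genes 0 and 1, and of 25 hypoxia and glycolysis genes 2 and 2. Of 22 pluripotency genes 1 was higher, Sox2, a factor shared with neural and endoderm progenitors, at 1.06 ± 0.22 (limma adjusted p = 0.21), and 3 were lower. Over 3 pairs Sox2 was called higher and Dppa4, a chromatin protein of pluripotent cells, lower at -0.81. Of 15 heat shock and protein folding genes 2 were higher and 1 lower. Hspa1b, an inducible Hsp70, had 1751, 387, 1262 and 228 in batch 1, against 201, 108, 1125 and 251 in batch 2, with batch 1 excess on day 7 and near-equal signals on day 8. Neuroectoderm, neuron, Hox, trophoblast, primitive streak and paraxial mesoderm lists had at most 2 genes higher and 0 lower each, of 7 to 17 tested.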

How the data were processed

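Per the labels, RNA of sorted cells was amplified in 2 rounds from an oligo dT primer with a T7 promoter and hybridised to Affymetrix mouse arrays of 45101 probe sets. The authors deposited linear MAS5 intensity values, computed with GCOS 1.4 and the MAS5 algorithm per the submitters' processing notes. The number of arrays limits the precision.

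Of the probe sets, 64 controls, 9160 with no gene symbol and 932 with several were dropped. Entrez identifiers gave the current symbol of 34741 probe sets, with 0 changed. The probe set with the highest mean stood for each of 18193 genes, and type x probe sets served only for genes without another. A gene was tested if 2 or more of the arrays fitted reached 22.5, the overall median. Tests used log2(signal + 6.8), with the 25th percentile as offset.

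The fits used limma 3.58.1 (R 4.3.3), a variance trend and Benjamini-Hochberg adjustment over all genes tested, with calls at an adjusted p under 0.05. The 8 arrays were fitted with the 4 day and fraction pairs as a block. The early and late gaps were compared over 16 arrays in 8 pairs, the fractions over the same 16 arrays and the days over 8. The pairing comes from the day and fraction in the titles. A single ratio was tested by exact exchange of signs over pairs. Gene lists are described by counts and medians without a test. The comparison and the gene lists were chosen with earlier results of these data known.

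The naming rule took the 12 highest and 12 lowest by adjusted p, or by lowest p among genes of 1 sign in 4 pairs where none passed, the leading members of each list, the 6 highest and 6 lowest early-to-late differences, and Nkx2-5 and Myh6. Members called over 3 pairs, genes shown as markers and those leading the fraction and day comparisons were named after their values were seen. Promoters, 1 a symbol, come from RefSeq (GRCm38.p6). The fits were tested on simulated data. Plots were made with Python 3.11.15, matplotlib 3.10.9, pandas 2.3.3 and numpy 2.4.6. Alternatives covered the offset, scaling, filter, probe sets, variance trend, array weights, block and leaving out each pair, and, added after seeing the data, each day alone.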

Additional observations from a re-analysis of the deposited data

Results flagged for a closer look

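Some values stood far from the other 3 pairs of their gene or list. In day 8 GFP-positive cells the gap was 0.42 for Dsg2 (1.26 to 1.36 in the other 3 pairs), 0.28 for Afp (2.17 to 2.55), -0.033 for Hopx (0.64 to 0.74), -0.27 for Krt7 (1.11 to 1.37), -0.23 for Tagln (1.19 to 1.32) and 0.56 for Eif2s3y, a Y-linked translation factor gene (0.07 to 0.10). The list medians of neurons, at -0.0045 (0.42 to 0.47), and of the respiratory chain, at 0.10 (-0.18 to -0.14), stood apart in the same pair. In day 8 GFP-negative cells Irx3, an Iroquois homeobox factor, stood apart at 0.96 (0.38 to 0.42), and so did the red cell list median at -0.71 (-0.14 to -0.03). These are 10 of 143 sets of 4 pairs examined. Chance puts about 1 in 20 sets past this limit (Dixon's ratio) if sets are independent and not selected. These sets share the same arrays, and many are genes named for a low p over the 4 pairs. The count of 10 can therefore not be set against that rate. The day 8 GFP-positive pair accounts for 8 of the 10.

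The gap of days 7 and 8 differed from that of days 5 and 6 by the limma test for 24 of the genes taken by the naming rule. Over all genes 0.558% had a more positive and 1.83% a more negative late gap at an adjusted p under 0.05. The 6 lowest (Hemgn to Alas2) and the 6 highest (Fabp7 to Hoxb1) were named because they passed this test. Their outcome was therefore fixed, and the count of 24 cannot be set against those shares. The difference was negative for Hemgn (-4.58), Plek (-4.11), Csf2rb (-4.01), Slc4a1 (-3.91), Trim10 (-3.84), Alas2 (-3.80), Myh6 (-2.73), Slc25a37 (-2.62), Cpne7 (-2.47), Ttn (-2.37), Cpox, an enzyme of heme synthesis (-2.06), Slc6a9, a glycine transporter (-1.77), Mthfd2 (-1.34), Zmynd19 (-0.97), Suclg2, a subunit of succinyl-CoA ligase (-0.76), and Ftsj3 (-0.75). It was positive for Fabp7 (3.28), Mesp1 (3.25), Dppa5a (2.95), Col27a1 (2.70), Cxcr4 (2.22), Hoxb1 (2.21), Abhd2 (1.28) and Rps14, a ribosomal protein gene (0.50).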

How the results depend on the processing

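Over 4 pairs, without the replicate block of day and fraction pairs limma called 0 genes between the batches (532 at an unadjusted p under 0.05, smallest adjusted p 0.841), as with it. Array weights gave 90 calls, day 7 alone, chosen after seeing the data, 574, day 8 alone 0 (370 unadjusted), and leaving out a pair 0 to 537. The other alternatives gave 0. The difference between early and late gaps had 312 calls, against 645 with equal array medians, 190 with the mean over probe sets, 156 without the variance trend, 568 with array weights and 112 to 369 without a pair. Its 73 positive calls became 46, 36 (no filter on signal), 45, 26, 186 and 14 to 107, and its 239 negative calls 599, 145, 130, 382 and 97 to 262, in the same order with the filter omitted for the negative calls. The difference between days had 0 to 12 calls without a pair. Signs reversed for Rps14 (-0.028, equal medians), Hand1 (-0.10) and Eif2s3y (-0.026) with the mean over probe sets, and Nodal (-0.026) and Nkx2-5 (-0.21) on day 8 alone, where the cause was not tested. Of 1680 values for 94 genes, 1530 kept direction and side of the threshold, 145 passed it and 5 reversed. Of 181 early-to-late values for 14 genes, 154 kept both, 26 missed the threshold and 1 passed it. The interferon and MHC median ran from -0.37 to 1.49 and the white cell median from -0.18 to 0.87, while sarcomere (0.44 to 0.76), amino acid response (-0.62 to -0.36) and sterol synthesis (-0.42 to -0.20) kept their sign. Equal medians moved the median gene from 0.05 to -0.06. There is 1 batch a side, and dim genes have only a few signal units over the offset.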
